A study of Homo sapiens with 24 samples.

Results

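OGT and OGA are the only pair of human enzymes that write and erase O-GlcNAc, a single sugar placed on serine and threonine residues of nuclear and cytoplasmic proteins, and their detained introns were described here across cells that did or did not carry a splicing-modulator resistance mutation. OGT is the O-GlcNAc transferase, which adds the sugar, and OGA (formerly MGEA5) is the O-GlcNAcase, which removes it. In each gene 1 intron known from earlier work to be detained was followed, intron 4 of OGT and intron 10 of OGA. The members were chosen by position, as all measured splice junctions and exon–intron boundaries on the strand and within the span of the gene. That gave 598 of the 1828222 junctions and boundaries used, 254 in OGT and 344 in OGA. OGT lies on the plus strand at chrX:70752937-70795742 and OGA on the minus strand at chr10:103544200-103578222 (GRCh37).

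A detained intron stays in polyadenylated RNA that remains in the nucleus, where it is spliced later or degraded, unlike the rest of the introns of the same transcript. The splicing of such introns in OGT and OGA is known to respond to the amount of O-GlcNAc in the cell and to keep its level steady. More OGT mRNA is completed when the sugar is scarce, and more OGA mRNA when it is abundant. E7107 is a pladienolide derivative that binds the SF3b complex, the part of the spliceosome that recognises the branch point of an intron near its 3′ splice site. PHF5A is a small subunit of that complex, and its Y36C mutation confers resistance to the compound.

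HCT-116, a human colorectal carcinoma line, carried either WT or Y36C PHF5A delivered by lentivirus into parental cells under blasticidin selection, so every group also kept the line's own PHF5A. The 4 groups were WT cells in DMSO, WT cells in E7107, Y36C cells in DMSO and Y36C cells in E7107, with 6 samples in each and 24 in all, treated for 6 h before poly A RNA was sequenced. The labels give no dose of E7107, and the study's methods name more than 1. The study's methods give the treatment as done in hexaplicate before lysis. Nothing in the labels says whether the 6 samples of a group came from cultures grown apart. The p-values measure the spread between these samples, which may be technical.

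The splice sites of the detained introns are shown because every value below is read at them. Exon bases and intron bases are in lower case, and capitals mark the first and last pair of intron bases. They were read 5′ to 3′ from the GRCh37 genome.
OGT intron 4 5′ splice site, chrX:70764481-70764500 (+): ccaagGTaggtgtttgatag
OGT intron 4 3′ splice site, chrX:70767732-70767761 (+): tcttctttcattaacccctcctaAGgcatg
OGA intron 10 5′ splice site, chr10:103557722-103557741 (-): gttagGTaggtgcaccagga
OGA intron 10 3′ splice site, chr10:103553751-103553780 (-): ctccgcttggatctgatctcaacAGggtgt

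OGT intron 4 spans chrX:70764486-70767756, 3271 bases with 41.6% GC, between coding exons 4 and 5 of the 22-exon reference transcript. OGA intron 10 spans chr10:103553756-103557736, 3981 bases with 38.8% GC, between exons 10 and 11 of a 16-exon transcript. Read in frame from the start codon, an RNA that keeps OGT intron 4 meets a stop codon at intron base 10, after 180 codons of 1046. One that keeps OGA intron 10 meets it at intron base 48, after 677 codons of 916. Both introns begin with the same 7 bases, GTAGGTG, a likeness noticed after the sequences were read. Of 401350 annotated introns 1.09% begin so, and among the 36 introns of the 2 reference transcripts these 2 do. The 5′ splice sites each matched 7 of 9 positions of the most frequent bases over all introns (CAGGTAAGT), where the median intron matched 6. Of the 20 bases before the terminal AG, 16 are pyrimidines in OGT intron 4 and 12 in OGA intron 10, against a median of 15.

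Every value is a percent spliced in (PSI), the share of reads at 1 splice site that takes 1 route. A boundary row counts the reads that run unspliced from exon into intron, and a spliced row the reads that join 2 exons. Retention of an intron is the mean PSI of its 5′ and 3′ boundaries. As a share, PSI does not separate more unspliced RNA from less spliced RNA. No counts were analysed, so the depth behind a single PSI was not measured. OGT values move in larger steps in WT cells under E7107, so they may rest on fewer reads there. At the 5′ boundary of OGT intron 5 the lowest value above 0 was 0.546% in WT cells in DMSO and 2.5% under E7107. The number of splice sites with reads was lowest in WT cells under E7107, with 281367 to 283782 of 637511 sites per sample, against 328615 to 340236 in the other groups, and its part in the results was not tested. The splice sites of all 36 reference introns had reads in all 24 samples, though the unspliced reads were at 0 in some. Of the epithelial markers, EPCAM, CDH1, KRT8 and KRT18 had reads in all samples at 17 of 22, 30 of 34, 21 of 26 and 14 of 14 annotated splice sites, and CDX1 and VIL1 at 0. No site of PTPRC, COL1A2 or HBB was listed, while the fibroblast-associated COL1A1 had reads in all samples at 80 of 100 sites. PECAM1 was not analysed here.

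OGT intron 4 was by far the most retained intron of its gene in untreated cells. In WT cells in DMSO its retention was 66.7% ± 3.33 (SD, n = 6), higher than that of 99.3% of the 113301 annotated introns read in all samples. The other 20 OGT introns had mean retentions from 0% to 5.22%, with a median of 0.573%. OGA intron 10 was retained at 24.4% ± 2.50 (SD, n = 6), above 94.5% of introns, while the other 14 OGA introns lay between 0.248% and 14.5%. The detained intron exceeded the mean of the others by 65.8 percentage points in OGT and by 20.4 in OGA. In each of the 4 groups and in both genes all 6 samples showed that order (exact sign-flip test, p = 0.03125, the smallest that 6 samples allow, adjusted p = 0.0434 over 50 tests). These introns were chosen as known to be detained, so the order follows from the choice and the test adds no support to it.

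**Figure D1:**
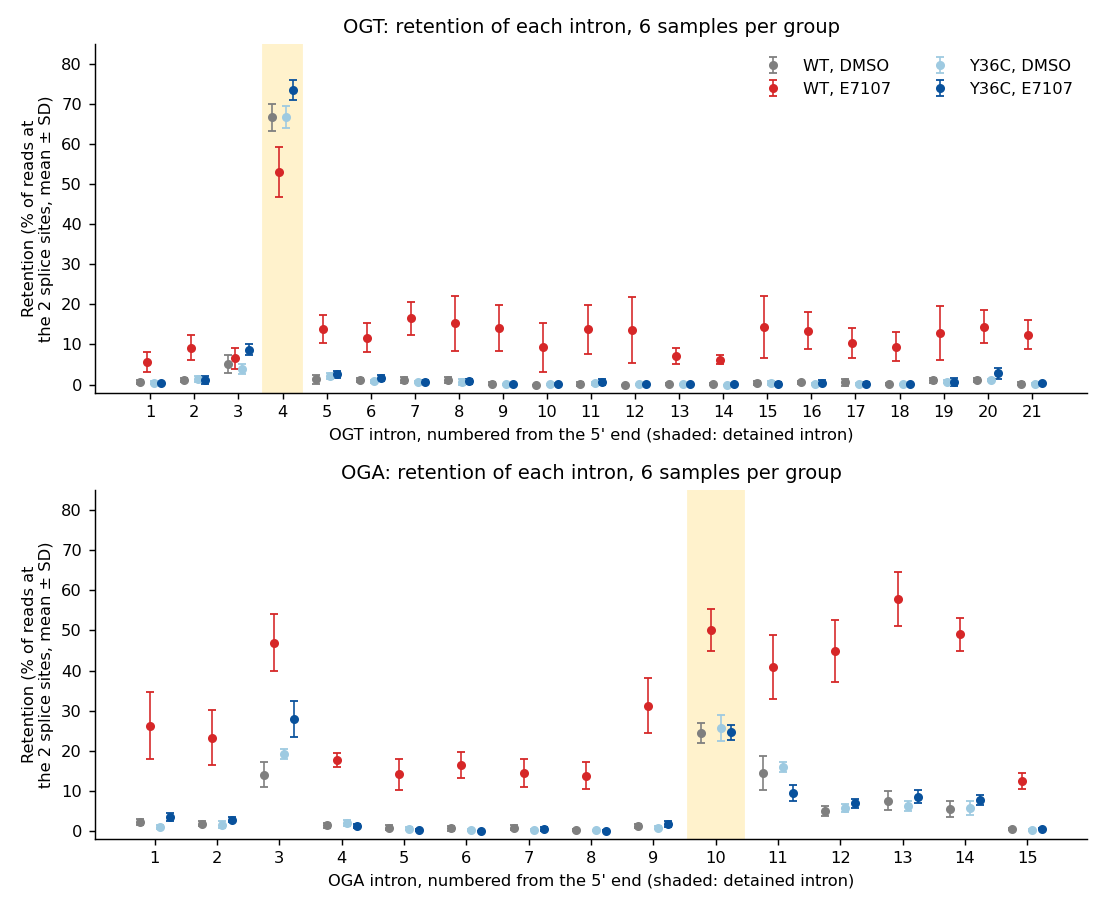
Retention of every intron of the OGT and OGA reference transcripts, in percent of the reads at its splice sites (vertical axis), by intron number from the 5′ end (horizontal axis). Points are means and bars are SDs of 6 samples per group, and shading marks the detained introns: in OGT, intron 4 falls in WT cells under E7107 (red) while most other introns rise, and in OGA all introns rise.

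E7107 moved the detained intron of OGT in WT cells against the direction of the rest of the gene. In WT cells in DMSO the 6 retention values of intron 4 ran from 60.8% to 71.0% with a median of 67.3%, and under E7107 from 45.9% to 63.5% with a median of 52.3%. Only 1 treated sample reached into the DMSO range. The mean fell by 13.7 percentage points (exact permutation test, p = 0.00433, adjusted p = 0.00802), to 53.0% ± 6.24 (SD, n = 6). Mean retention of the other 20 introns rose from 0.835% ± 0.138 to 11.5% ± 1.87 (SD, n = 6 each), with all 6 treated samples above all 6 controls (exact permutation test, p = 0.00216, the smallest that 924 splits allow, adjusted p = 0.00471). The gap between the detained intron and the others narrowed by 24.4 percentage points, again with no overlap of samples (exact permutation test, adjusted p = 0.00471).

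**Figure D2:**
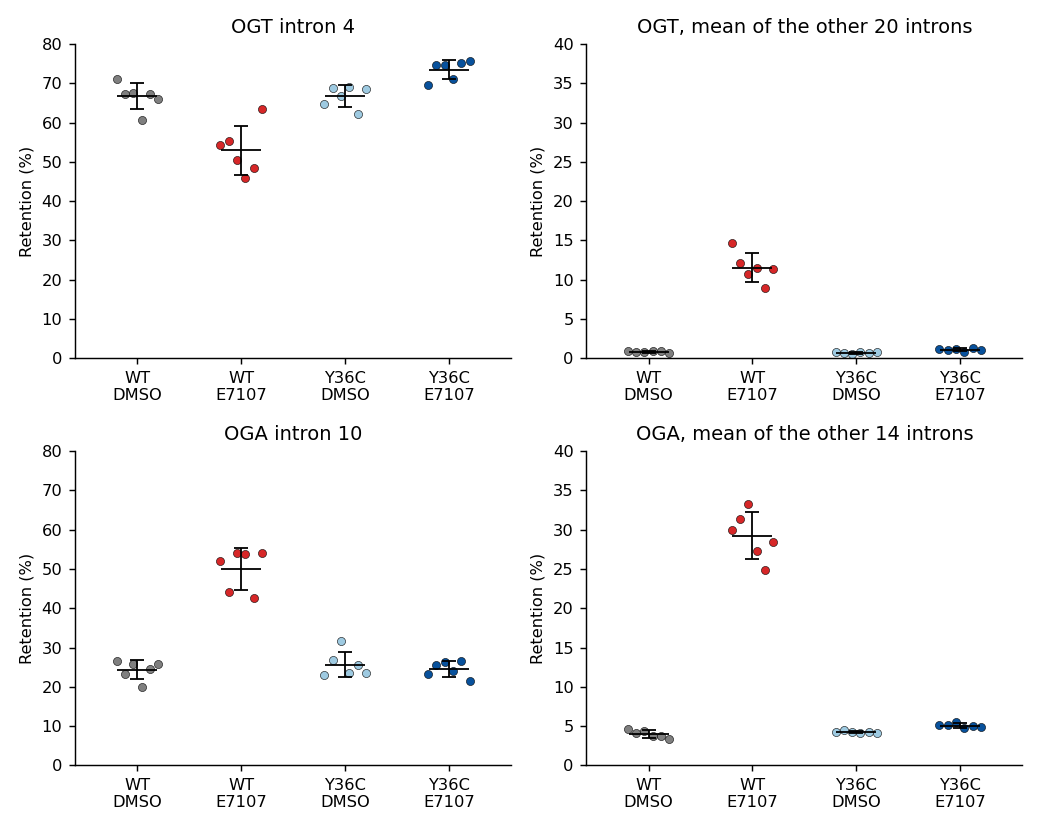
Retention in percent (vertical axis) of the detained intron (left) and mean retention of the other introns (right) for OGT (top) and OGA (bottom), by group. Each point is 1 sample, horizontal bars are means and whiskers SDs (n = 6): OGT intron 4 falls to 53.0% in WT cells under E7107 while the other OGT introns rise to 11.5%, and OGA intron 10 rises to 50.1% beside 29.2% for its other introns.

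The fall of OGT intron 4 passed the test at its 3′ end alone. At the 5′ boundary, PSI in WT cells ran from 55.9% to 66.5% in DMSO (median 62.8%) and from 57.5% to 69.3% under E7107 (median 63.7%). These ranges overlapped almost fully, and the difference in log odds was 0.07 (SE 0.114, limma, adjusted p = 0.615). At the 3′ boundary it ran from 65.6% to 76.6% in DMSO (median 72.0%) and from 31.6% to 58.5% under E7107 (median 40.3%). Here all 6 treated samples lay below all 6 controls, with a log odds difference of -1.21 (SE 0.167, limma, adjusted p = 5.39e-05).

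Spliced reads across intron 4 showed the same asymmetry. Measured at the 3′ site, the exon 4 to exon 5 junction rose from 26.5% ± 3.63 to 55.8% ± 9.06 (SD, n = 6 each) in WT cells, a log odds difference of 1.24 (SE 0.168, limma, adjusted p = 4.66e-05). Measured at the 5′ site, the same junction was 34.7% ± 2.68 in DMSO and 34.7% ± 5.27 under E7107 (limma, adjusted p = 0.987). With the 5′ boundary in place of the mean of both, the change of the intron in WT cells was 1.73 percentage points upward (exact permutation test, p = 0.487, adjusted p = 0.529), so the call on OGT intron 4 in WT cells rests on its 3′ splice site.

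**Figure D3:**
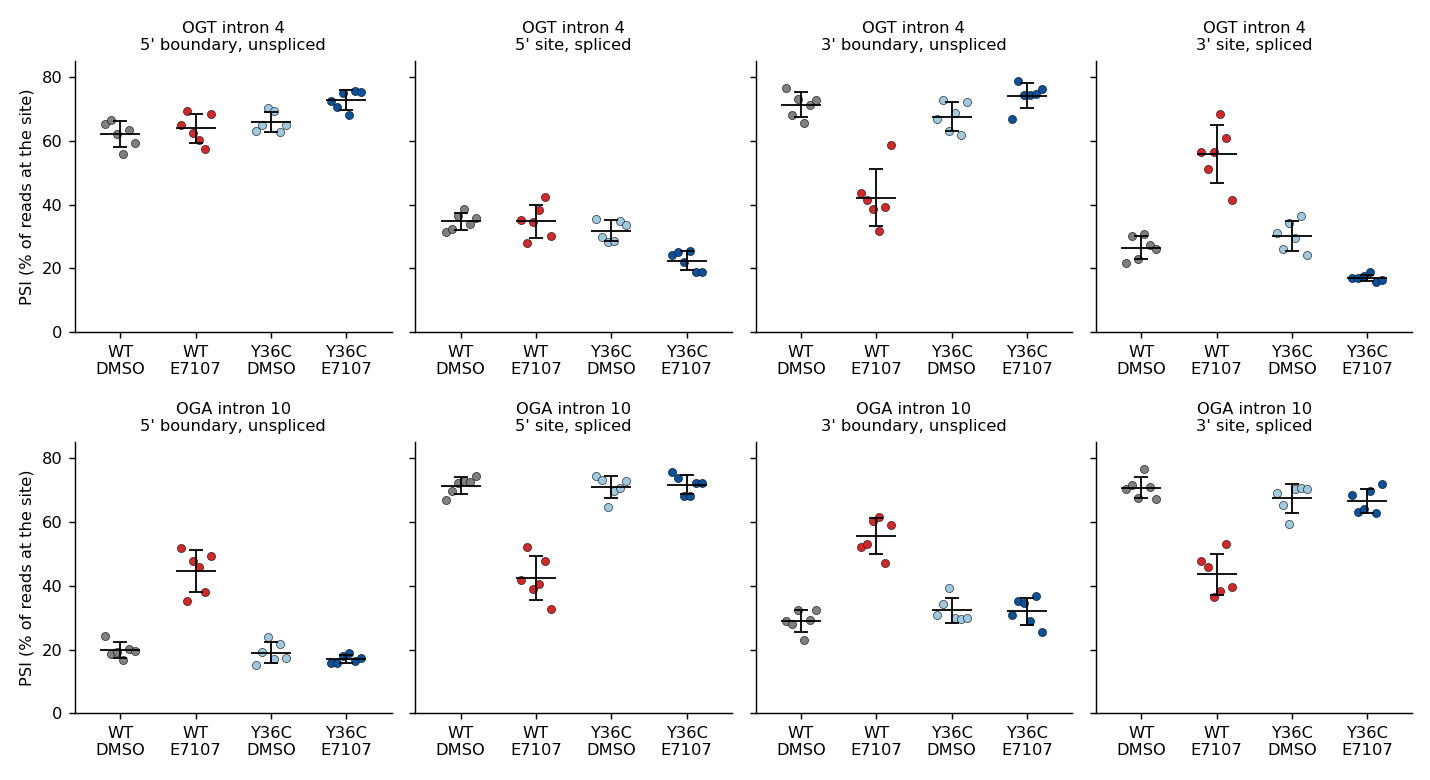
PSI in percent of the reads at the site (vertical axis) for the unspliced boundary and the spliced junction at each end of OGT intron 4 (top) and OGA intron 10 (bottom), by group. Each point is 1 sample, with mean and SD (n = 6): at OGT intron 4 the WT E7107 samples leave the DMSO samples only at the 3′ site, and at OGA intron 10 they do so at both sites.

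Y36C cells went the other way. In DMSO, retention of OGT intron 4 ran from 62.3% to 69.0% (median 67.7%) and under E7107 from 69.7% to 75.7% (median 74.6%), with no overlap. The mean rose by 6.73 percentage points to 73.4% ± 2.44 (SD, n = 6; exact permutation test, p = 0.00216, adjusted p = 0.00471). Splicing of exon 4 to exon 5 fell at both ends, from 31.8% ± 3.27 to 22.4% ± 3.04 at the 5′ site (limma, adjusted p = 0.00419) and from 30.2% ± 4.65 to 17.1% ± 1.01 at the 3′ site (limma, adjusted p = 0.00032). The 5′ boundary rose by 0.32 in log odds (SE 0.0868, limma, adjusted p = 0.0219). For the 3′ boundary the difference was 0.31 (SE 0.114, limma, adjusted p = 0.0748).

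In Y36C cells the response of intron 4 to E7107 was 20.4 percentage points above that in WT cells (exact permutation of genotype within treatment, p = 0.00159, adjusted p = 0.00471). On the 5′ boundary alone this difference was 5.14 points (exact permutation test, adjusted p = 0.270), and on single rows it passed at the 3′ boundary (1.52 in log odds, SE 0.210, limma, adjusted p = 2.2e-06) and not at the 5′ boundary (0.24, SE 0.151, adjusted p = 0.199). The levels ordered as Y36C under E7107, then both DMSO groups, then WT under E7107. Neighbours in this order differed (exact permutation tests, adjusted p = 0.00802 or lower) except the DMSO groups, which at 66.7% each differed by 0.0516 points (exact permutation test, p = 0.981). The order did not hold on single boundaries. With the 3′ boundary alone, Y36C cells under E7107 were 2.89 points above WT cells in DMSO (exact permutation test, adjusted p = 0.272). With the 5′ boundary alone, WT cells under E7107 were 2.05 points below Y36C cells in DMSO (-2.05, exact permutation test, adjusted p = 0.451) and not below WT cells in DMSO.

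The other OGT introns hardly moved in Y36C cells. Their mean retention was 0.685% ± 0.0892 in DMSO and 1.10% ± 0.161 under E7107 (SD, n = 6 each). That rise of 0.412 points separated all samples (exact permutation test, adjusted p = 0.00471). With the median over introns in place of the mean it was 0.0438 points (adjusted p = 0.441). Intron 3, just upstream of the detained intron, rose the most, with retention going from 3.96% ± 1.24 to 8.69% ± 1.36 (SD, n = 6 each). Its 3′ boundary rose by 0.90 in log odds (SE 0.169, limma, adjusted p = 0.00283). In WT cells the same intron was the only other OGT intron whose samples overlapped between treatments, at 5.22% ± 2.25 in DMSO and 6.52% ± 2.61 under E7107, and neither of its boundaries passed the test (limma, adjusted p = 0.947 and 0.390).

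Among the remaining OGT introns the rise in WT cells ran from 5.03 points in intron 1 and 6.12 points in intron 14 to 14.1 points in intron 8 and 15.4 points in intron 7. Intron 7 went from 1.10% ± 0.775 to 16.5% ± 4.16 in WT cells, and was at 0.685% in Y36C cells in DMSO and 0.666% under E7107. Intron 15, with a rise of 14.1 points, ranged from 4.55% to 25.3% between treated samples. Counted without any filter on low values, 19 of 20 other OGT introns and 14 of 14 other OGA introns had all 6 WT E7107 samples above all 6 DMSO samples. The share over all 113301 introns was 42.2%, with 2.05% entirely lower. In Y36C cells the counts were 1 of 20 and 2 of 14 higher and 0 and 1 lower, beside 9.77% higher and 0.259% lower over all introns.

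OGA answered E7107 with retention of its whole length in WT cells. Retention of intron 10 ran from 19.9% to 26.7% in DMSO (median 25.3%) and from 42.5% to 54.2% under E7107 (median 52.9%), with no overlap. Its mean rose by 25.7 percentage points to 50.1% ± 5.35 (SD, n = 6; exact permutation test, p = 0.00216, adjusted p = 0.00471). Both ends took part. The 5′ boundary went from 19.8% ± 2.48 to 44.7% ± 6.62 (log odds difference 1.15, SE 0.130, limma, adjusted p = 9.61e-06) and the 3′ boundary from 29.0% ± 3.45 to 55.5% ± 5.69 (1.10, SE 0.123, limma, adjusted p = 8.68e-06).

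The other 14 OGA introns also rose. Their mean went from 3.99% ± 0.479 to 29.2% ± 2.98 (SD, n = 6 each), a rise of 25.2 percentage points (exact permutation test, adjusted p = 0.00471). The excess of intron 10 over the others was 20.4 points in DMSO and 20.9 under E7107 (exact permutation test, p = 0.853). On a natural-log odds scale, which weighs a rise from a low level more heavily, that excess fell by 1.28 under E7107 (exact permutation test, adjusted p = 0.00492). A difference between the detained intron of OGA and its neighbours was thus not detected in points, while in odds the detained intron rose less.

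The rise in OGA was uneven along the gene. It was largest near the 3′ end, with 50.4 points in intron 13, 43.5 in intron 14 and 39.8 in intron 12, and smallest in intron 15 with 11.97, intron 5 with 13.3 and intron 8 with 13.5. Intron 13, 265 bases long at chr10:103550846-103551110, went from 7.47% ± 2.36 to 57.8% ± 6.72 (SD, n = 6 each) and so passed intron 10 in level. Its 5′ boundary, shown for comparison with the detained intron, rose by 2.72 in log odds (SE 0.187, limma, adjusted p = 1.31e-07).
OGA intron 13 5′ splice site, chr10:103551096-103551115 (-): gacaaGTatgtgataagtat
OGA intron 13 3′ splice site, chr10:103550841-103550870 (-): ctgtggcctctttccttctgagcAGgttag

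OGA intron 10 gave no detectable response in Y36C cells. Its retention ran from 23.1% to 31.6% in DMSO (median 24.6%) and from 21.6% to 26.6% under E7107 (median 24.7%), and the means differed by -1.11 percentage points (exact permutation test, p = 0.539). The responses of the genotypes differed by 26.8 points for intron 10 (-26.8 for Y36C minus WT, exact permutation of genotype within treatment, p = 0.000546, adjusted p = 0.00471) and by -24.4 points for the other introns (p = 0.00026, adjusted p = 0.00471). For the excess of the detained intron over the others the difference was -2.43 points (exact permutation test, p = 0.383), while on natural-log odds it was 1.08 (exact permutation test, adjusted p = 0.00559). Under E7107, WT cells stood apart from the other 3 groups, whose means of 24.4%, 25.7% and 24.6% did not differ beyond their spread (exact permutation tests, p from 0.504 to 0.907). At the 5′ boundary alone Y36C cells under E7107 were 2.75 points below WT cells in DMSO (-2.75, exact permutation test, adjusted p = 0.0416).

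OGA introns 3 and 11, chosen after their values were seen, changed the most in Y36C cells among OGA introns, in opposite directions. Intron 3 went from 19.2% ± 1.20 to 27.9% ± 4.45 (SD, n = 6 each), and both its 5′ boundary (0.54 in log odds, SE 0.124, limma, adjusted p = 0.00858) and its 3′ boundary (0.45, SE 0.123, adjusted p = 0.0222) rose. Under E7107 the mean of intron 3 in Y36C cells was above the 24.6% of intron 10. Intron 11, directly downstream of the detained intron, fell from 15.9% ± 1.22 to 9.39% ± 2.06. All 6 treated samples lay below all 6 controls, and the 5′ boundary (-0.43, SE 0.117, limma, adjusted p = 0.0220) and the 3′ boundary (-0.72, SE 0.163, adjusted p = 0.00827) both fell. In WT cells the same intron rose from 14.5% ± 4.22 to 40.9% ± 8.01. The mean over the other 14 OGA introns rose from 4.24% ± 0.130 to 5.07% ± 0.272 in Y36C cells (exact permutation test, adjusted p = 0.00471).

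**Figure D4:**
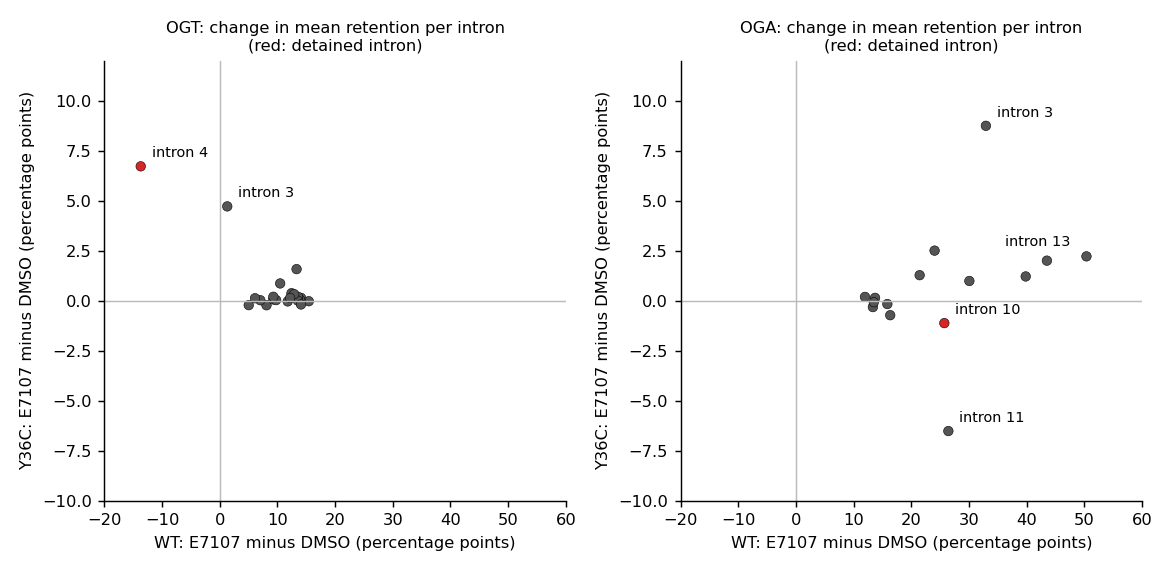
Change in mean retention from DMSO to E7107, in percentage points, in WT cells (horizontal axis) and in Y36C cells (vertical axis), 1 point per intron, red for the detained intron. OGT intron 4 is the 1 intron with a negative change in WT cells and a positive change in Y36C cells, and among OGA introns, 3 and 11 lie farthest from 0 on the Y36C axis.

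Exon skipping in OGT rose in Y36C cells under E7107. The junction from exon 6 to exon 8 leaves out exon 7, which has 196 bases (chrX:70775040-70775235), a length that is not a whole number of codons. At its 5′ site it held 14.1% to 19.7% of reads in WT cells in DMSO (median 18.1%), 6.98% to 15.7% in WT cells under E7107 (median 9.81%), 13.2% to 21.8% in Y36C cells in DMSO (median 16.6%) and 36.03% to 45.3% in Y36C cells under E7107 (median 41.8%). The last group stood clear of all others. The rise in Y36C cells was 1.23 in log odds (SE 0.0998, limma, adjusted p = 1.16e-05), while in WT cells the junction fell by 0.59 (SE 0.150, limma, adjusted p = 0.00529), a difference of 1.81 between genotypes (SE 0.188, limma, adjusted p = 3.37e-08). At its 3′ site the fall in WT cells did not pass (limma, adjusted p = 0.0621), and the rise in Y36C cells did (adjusted p = 5.21e-05).
OGT intron 6 3′ splice site, chrX:70775015-70775044 (+): tgtgtgtgtgtgtgtttatttacAGagctg
OGT intron 7 5′ splice site, chrX:70775231-70775250 (+): gcagtGTaaggatttttact
These are the sites on either side of the skipped exon 7.

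Exon 4, the exon before the detained intron, was also skipped in Y36C cells under E7107. The junction from exon 3 to exon 5 leaves out its 69 bases (chrX:70764417-70764485), a whole number of codons, together with intron 4. It held 5.36% to 11.5% of reads at its 5′ site in Y36C cells under E7107 (median 8.05%) and at most 4.29% in any sample of the other groups. The rise in Y36C cells was 1.54 in log odds (SE 0.216, limma, adjusted p = 0.000449). The row passed the filter through the treated group alone, and without the filter the adjusted p was 0.0014. In WT cells the junction did not pass the filter on low values and was not tested. At its 3′ site the groups overlapped. There replicate 2 of WT cells under E7107 stood at 7.32%, within the 4.17% to 8.06% of Y36C cells under E7107.

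Intron 4 also holds an annotated exon of 146 bases, at chrX:70766194-70766339. An annotated form of 153 bases and an unannotated one of 254 share its 3′ splice site, so reads to that site cannot be assigned to 1 form. Reads from exon 4 to this inner 3′ splice site took 3.03% ± 1.77 of the 5′ site in WT cells in DMSO, 1.19% ± 1.43 in WT cells under E7107, 1.96% ± 1.58 in Y36C cells in DMSO and 4.67% ± 1.33 in Y36C cells under E7107 (SD, n = 6 each). The Y36C rise was 0.74 in log odds (SE 0.202, limma, adjusted p = 0.0212, and 0.0561 without the filter on low values), and the genotypes' responses differed by 1.48 (SE 0.391, limma, adjusted p = 0.00312). As a share of reads at the inner 3′ splice site, the same junction overlapped between treatments in Y36C cells. It ran from 0.820% to 7.27% in DMSO and from 2.70% to 8.14% under E7107. That site had reads in 3 of the 6 WT E7107 samples. Reads from the 146-base form on to exon 5 were at 0 in all 6 WT E7107 samples and at 0.481% to 2.50% in WT cells in DMSO. The row passed the filter through that DMSO group, so no test is given. Onward reads from the other forms are not given here.
OGT inner exon 3′ splice site, chrX:70766169-70766198 (+): ttttcaccattgatattgtatttAGaaggt

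Junctions inside OGA intron 10 framed similar inner exons that the annotation does not list, among them 107 bases at chr10:103555131-103555237. Forms of 116, 102 and 93 bases share its 3′ splice site, so reads to that site cannot be assigned to 1 form. Reads from exon 10 to this 3′ splice site, shown here, took 1.40% to 4.00% of the 5′ site in Y36C cells under E7107 (median 2.77%) and 0.461% to 1.04% in Y36C cells in DMSO (median 0.567%), with no overlap (log odds difference 0.79, SE 0.120, limma, adjusted p = 0.000764). In WT cells the range was 0% to 1.55% in DMSO and 0% to 2.22% under E7107. Onward reads from the 107-base form to exon 11 were at 0 in all 12 WT samples and at 0.403% to 0.877% in Y36C cells under E7107. With 5 of 6 DMSO samples at 0 in Y36C cells, this row passed the filter through the treated group alone, in which it had to be higher, so no test is given.
OGA inner exon 3′ splice site, chr10:103555233-103555262 (-): ttatcttcttccccattgtgtacAGatggg

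Skipping of OGA exons 6 and 2 responded differently to E7107 in the genotypes. Exon 6, of 99 bases (chr10:103565802-103565900), was skipped in WT cells: the exon 5 to exon 7 junction rose at its 5′ site from 3.49% ± 1.14 to 16.1% ± 4.63 under E7107 (log odds difference 1.46, SE 0.191, limma, adjusted p = 3.34e-05). In Y36C cells it was 3.63% ± 1.81 in DMSO and 4.41% ± 1.97 under E7107 (adjusted p = 0.642), and the interaction was -1.27 (SE 0.320, limma, adjusted p = 0.00217). Exon 2, of 52 bases (chr10:103573312-103573363), was skipped in Y36C cells, where the exon 1 to exon 3 junction rose from 0.224% ± 0.347 to 6.41% ± 1.92 (log odds difference 1.87, SE 0.157, limma, adjusted p = 1.42e-05). With 4 of 6 DMSO samples at 0, this row passed the filter through the treated group alone, and without the filter the adjusted p was 4.45e-05. WT cells under E7107 stood at 1.51% ± 1.35, and the interaction was 1.30 (SE 0.340, limma, adjusted p = 0.00279, and 0.0592 with an offset of 0.1 in place of 1).

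Exon 11, just behind the detained intron of OGA, was left out by the exon 10 to exon 12 junction in 7.78% ± 2.09 of reads at its 3′ site in WT cells in DMSO and 12.9% ± 3.44 under E7107 (log odds difference 0.51, SE 0.180, limma, adjusted p = 0.0319). That call was lost without the filter on low values (adjusted p = 0.0653). In Y36C cells the junction was at 7.18% ± 1.62 and 6.58% ± 1.26. Of the other skipping junctions, chosen after their values were seen, exon 12 to exon 15 rose in both genotypes at its 5′ site, from 0.969% ± 0.510 to 4.20% ± 3.22 in WT cells (limma, adjusted p = 0.0149) and from 0.960% ± 0.545 to 3.07% ± 1.13 in Y36C cells (adjusted p = 0.00508). Exon 7 to exon 9 rose in WT cells from 1.78% ± 1.09 to 6.11% ± 1.66 (limma, adjusted p = 0.000941) and was at 2.28% ± 0.641 and 3.18% ± 1.19 in Y36C cells (adjusted p = 0.309). A 5′ splice site inside intron 3 that leads to exon 4 fell in Y36C cells from 11.6% ± 5.78 of its reads spliced to 2.76% ± 1.04 (limma, adjusted p = 0.0101), and it had reads in 2 of the 6 WT E7107 samples.

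**Figure D5:**
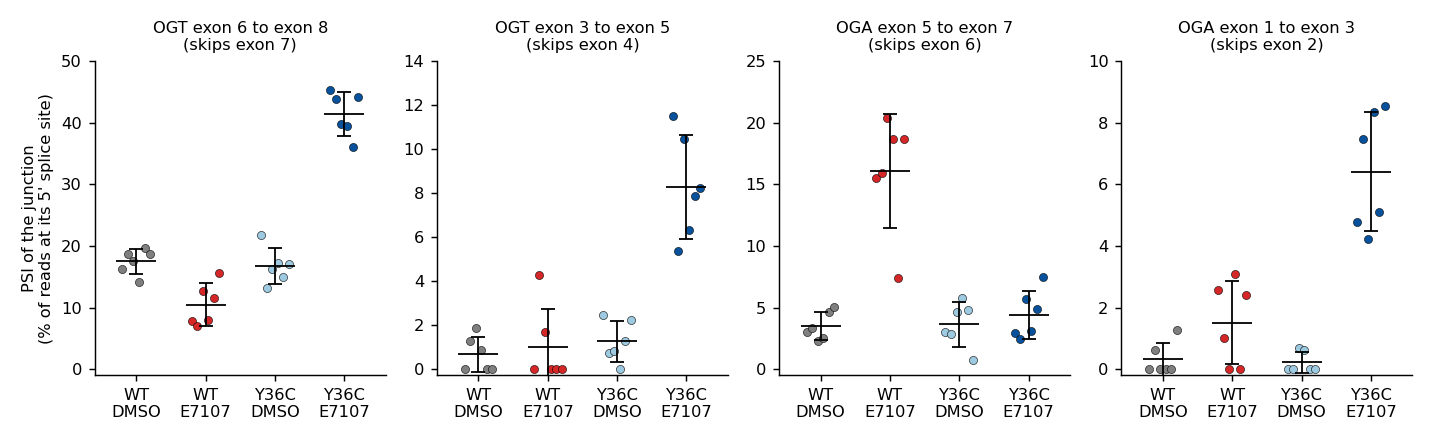
PSI of 4 exon-skipping junctions in percent of the reads at their 5′ splice site (vertical axes, different ranges), by group. Each point is 1 sample, with mean and SD (n = 6): the OGT junctions and OGA exon 1 to exon 3 are highest in Y36C cells under E7107, and OGA exon 5 to exon 7 in WT cells under E7107.

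Across all rows of the 2 genes, those that could be tested are set beside the whole table. In WT cells, 39 of 81 OGT boundary rows and 30 of 104 OGA boundary rows passed the filter on low values, and rows at 0 in some DMSO samples passed through the E7107 group alone, in which they had to be higher. Of these, 34 OGT rows and 30 OGA rows rose and 1 OGT row fell (limma, adjusted p at or below 0.05), where 70.9% of all tested boundary rows rose and 5.78% fell. The single fall was the 3′ boundary of intron 4. Of spliced rows, 12 of 93 tested rose and 71 fell, beside 7.32% and 39.0% over the table. Splicing of intron 4 at its 3′ site was the 1 OGT row to rise, and the 11 in OGA joined exons across at least 1 exon.

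In Y36C cells, 8 of 32 tested boundary rows rose and 3 fell, beside 27.5% and 1.43% of all, so the share that rose was close to that over the table. Without the filter on low values, 4 of 32 OGA boundary rows were called in place of 8 of 21. Spliced rows gave 13 higher and 17 lower of 98, against 7.06% and 14.5%. Under E7107, Y36C against WT, 64 of 69 boundary rows were lower and 3 higher, with 62.9% lower and 11.7% higher over the table, and both boundaries of OGT intron 4 were among the 3. Boundary rows without unspliced reads in some Y36C samples passed the filter through the WT group alone, in which they had to be higher. For such rows the filter set the direction. Spliced rows were higher in 75 of 96 and lower in 17, against 38.4% and 11.8%. The interaction was negative for 64 of 69 boundary rows and positive for 1, beside 54.9% and 8.96%, and positive for 75 of 100 spliced rows and negative for 15, beside 32.5% and 9.06%. Here too, boundary rows could pass the filter through WT cells under E7107 alone, where a high value makes the interaction negative.

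No single row of either gene was called between the genotypes in DMSO. Of 31 boundary rows and 95 spliced rows tested, 0 were called by limma at an adjusted p of 0.05, and 5 and 7 had an unadjusted p under 0.05. Over all rows tested, 0.204% of boundary rows were called higher and 0.165% lower, and 0.118% and 0.124% of spliced rows. The mean over the other OGT introns was 0.149 points lower in Y36C than in WT cells (exact permutation test, p = 0.0649, adjusted p = 0.0878). That difference passed with the median over introns (-0.237 points, adjusted p = 0.00492), on natural-log odds (adjusted p = 0.0209) and with the 3′ boundary alone (-0.221 points, adjusted p = 0.0492), all by exact permutation tests. OGA intron 10 was 1.28 points higher (exact permutation test, p = 0.504).

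The introns of other genes whose retention followed OGT intron 4 most closely over the 24 samples lay in P4HTM, ENSG00000266086, RCCD1, AFMID and LSM7, with Pearson's r from 0.906 to 0.920 among 30473 introns. Like OGT intron 4 they were lowest in WT cells under E7107 and highest in Y36C cells under E7107, for example 16.7% and 46.1% in LSM7, a subunit of the LSm ring of U6 snRNP, with 39.9% in WT cells in DMSO. For OGA intron 10 the closest were in DNMBP, ENSG00000291073, SH3RF1, GEM and TFIP11, a spliceosome disassembly factor, with r from 0.980 to 0.982. Its intron in TFIP11 went from 1.98% to 69.2% in WT cells and stood at 2.07% in Y36C cells under E7107. These correlations are descriptions over 24 samples in 4 groups, and the differences between the groups carry them. The introns were picked by these same correlations, so a shared order of the groups adds no support.

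A list of 14 genes held enzymes and a carrier that make, salvage, break down or move the donor sugar and its precursors, the transferase EOGT, and HCFC1, a host cell factor that OGT cleaves. In WT cells 11 of them had tested boundary rows, of which 105 of 151 rose and 4 fell (limma), beside the 70.9% and 5.78% over the table. HCFC1 gave 52 of the 105, and without it 53 of 99 rows rose (53.5%), a choice made after the counts were seen. Rows at 0 in some DMSO samples entered these counts through the E7107 group alone. With no filter on low values, 51 of 52 HCFC1 rows and 56 of 243 rows of the other genes rose, beside 40.5% of all boundary rows. In HCFC1, 1 of the 3′ boundaries went from 2.81% ± 5.06 to 86.8% ± 4.73 (SD, n = 6 each). NAGK, the kinase that salvages GlcNAc, had 2 rows lower and 0 higher of 12, with 1 3′ boundary at 12.9% ± 5.41 in DMSO and 3.33% ± 8.16 under E7107. At that boundary the treated SD exceeded the mean, as when most samples are at 0. It then passed the filter through the DMSO group alone, where it is high. GNPNAT1, which acetylates glucosamine phosphate, rose in 10 of 10 rows (9 of 10 without the filter) and UAP1, which makes UDP-GlcNAc, in 8 of 10. With the filter, rows rose in 9 of 9 for UAP1L1, 5 of 5 for GNPDA2 and 8 of 15 for PGM3. For AMDHD2, SLC35A3 and GNPDA1 the counts were 7 of 18, 3 of 7 and 2 of 9. EOGT had 1 row higher and 2 lower of 4. GFPT1, GFPT2 and RENBP had no tested row in that comparison. In Y36C cells 33 of 109 rows rose and 0 fell, beside 27.5% and 1.43%, and without the filter 21 of 307 rose, beside 7.43%.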

How the data were processed

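Poly A RNA-seq of 24 samples in 4 groups was used. The authors aligned reads to hg19 with STAR, counted junction reads and deposited percent spliced in (PSI) values in percent, as a share of the reads at each splice site. Percentages at a site summed to 100, or to 0 where no reads fell, and those sites were treated as missing. From these percentages, limma 3.58.1 (R 4.3.3) was fitted across all rows on ln((PSI + 1)/(101 − PSI)), with Benjamini–Hochberg adjustment over all rows and an adjusted p of 0.05 or less as a call. Tested rows were those with reads at the site in every compared sample and a PSI over 0 throughout 1 group or more. Each end of a junction was tested as its own row. Comparisons between pairs of groups used their 12 samples, and the interaction used all 24.

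Single values were compared by two-sided exact permutation tests with Benjamini–Hochberg adjustment over 50 tests. Reference transcripts were ENST00000373719 and ENST00000361464 of GENCODE lifted to GRCh37. Of 39580 junctions on chromosomes 10 and X, 97.8% had GT and AG at the intron ends. Of 1830076 rows per file, 1854 (mitochondrial or without strand) were left out. No pair of samples held identical values. Named introns were the detained ones and the 3 with the largest and the 3 with the smallest rise in WT cells. Named junctions were those reaching into a detained intron and, outside the reference introns, the 3 called with the largest change in each genotype. OGA introns 3 and 11 were added beside these. The members and lists were chosen with earlier results of these data known. The limma step and the permutation test were tested on simulated data. Alternatives were an offset of 0.1, PSI in percent as the response, no filter on low values, a replicate block, 1 boundary in place of both, natural-log odds, the median over introns and leaving out the first and last intron. Analyses used Python 3.11.15, numpy 2.4.6, pandas 2.3.3 and matplotlib 3.10.9.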

Additional observations from a re-analysis of the deposited data

Results flagged for a closer look

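The response to E7107 differed between genotypes, by exact permutation of genotype within treatment (adjusted p = 0.00471 for each of 5 results). In OGT it differed by 20.4 percentage points for the detained intron (Y36C minus WT), by -10.3 for the mean of the other introns and by 30.7 for the detained intron minus the others. In OGA it differed by -26.8 points for the detained intron and by -24.4 for the mean of the others.

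Of 78 sets of 6 samples examined, 4 held a sample far from the rest, about as many as 1 in 20 gives by chance. Y36C DMSO replicate 2 had 5.10% of reads going from OGT exon 4 to the 3′ splice site of the inner exon, against 0.725% to 1.81% in the other samples. Y36C E7107 replicate 1 had 4.03% from the 146-base form of that exon to exon 5, where the others had 0% to 1.39%. WT E7107 replicate 5 had 7.41% for the OGA exon 5 to exon 7 junction at its 5′ site, against 15.5% to 20.4%. WT E7107 replicate 1 had 6.41% for OGA exon 10 to exon 12 at its 3′ site, against 12.5% to 15.9%.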

How the results depend on the processing

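Results at the level of whole introns kept their direction and side of the threshold without the first and last intron in all 36 comparisons made. With the 5′ boundary alone, the change of OGT intron 4 in WT cells turned to 1.73 points (adjusted p = 0.529), WT under E7107 minus Y36C in DMSO was -2.05 (adjusted p = 0.451) and the interaction 5.14 (adjusted p = 0.270), calls that both ended, the other OGT introns gave 0.246 for Y36C under E7107 minus WT in DMSO, and for that pair OGA intron 10 gave -2.75 and its excess -3.58. With the 3′ boundary alone, Y36C under E7107 minus WT in DMSO was 2.89 for OGT intron 4 (adjusted p = 0.272), 0.280 for the other introns and 2.61 for the excess, none of them called, the excess in Y36C cells changed by 6.07 (adjusted p = 0.0541), and the other OGT introns differed by -0.221 between genotypes in DMSO (adjusted p = 0.0492). On natural-log odds the other introns gave -0.0606 for the OGT genotypes in DMSO (adjusted p = 0.0209) and 0.0408 (OGT) and 0.0717 (OGA) for Y36C under E7107 minus WT in DMSO, and the OGA excess changed by -1.28 in WT cells (adjusted p = 0.00492), 1.21 between genotypes under E7107, -1.41 for WT under E7107 minus Y36C in DMSO and 1.08 for the interaction (adjusted p = 0.00559). With the median over the other introns, OGT gave 0.0438 for E7107 in Y36C cells, -0.237 between genotypes in DMSO (adjusted p = 0.00492) and -0.193 for Y36C under E7107 minus WT in DMSO, and OGA 0.527 for the last pair. For these shifts the cause was not tested. Without the filter on low values, 4 of 32 OGA boundary rows were called in Y36C cells. Over all genes, 86 of 246982 boundary rows rose and 60 fell between genotypes in DMSO, against 166 and 134 of 81232 with the filter. In Y36C cells under E7107, 755 of 241804 fell against 1249 of 87482. Among the pathway genes, by choices made after seeing the data, 53 of 99 boundary rows rose in WT cells without HCFC1 against 105 of 151. In Y36C cells without the filter, 21 of 307 rose against 33 of 109.

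The replicate numbers did not pair the samples. After each group's mean was subtracted from every row, the remaining deviations of same-numbered samples correlated by -0.0055 to 0.0059, no pair over 0.1. By these deviations, 0 to 2 of 6 samples correlated best with their own number. With the replicate block the smallest sign-flip p of 0.03125 became 0.0563 after adjustment, so no single value could pass, which says nothing about stability. The blocked differences, in points, were -13.7, 6.73, 20.5, 6.78 and -13.7 for OGT intron 4, 10.7, 0.412, -10.4, 0.263 and 10.8 for the other OGT introns, and -24.4, 6.31, 30.9, 6.52 and -24.6 for the excess, each for E7107 in WT cells, E7107 in Y36C cells, Y36C minus WT under E7107, Y36C under E7107 minus WT in DMSO and WT under E7107 minus Y36C in DMSO. In OGA they were 25.7, -25.6 and 24.4 for intron 10 (without E7107 in Y36C cells and Y36C under E7107 minus WT in DMSO) and 25.2, 0.826, -24.2, 1.08 and 24.98 for the others. Among single rows the block ended the calls on the 5′ boundary of OGT intron 4 in Y36C cells (adjusted p = 0.0795) and on OGA exon 10 to exon 12 in WT cells (adjusted p = 0.0927), and over the whole table it left 1 boundary row higher and 1 lower between genotypes in DMSO. The files used hold no counts, so what depth limits at single sites was not tested, also in WT cells under E7107.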
